A study of Mus musculus with 6 samples.

Results

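The genes described here are 55 ligands and receptors of the ephrin, semaphorin and netrin guidance systems, measured in sorted nephron progenitors of the embryonic mouse kidney. They were taken as a named list of 7 EphA receptors, 5 EphB receptors, 5 ephrin-A ligands, 3 ephrin-B ligands, 16 semaphorins, 9 plexins, 2 neuropilins, 2 netrins and 6 netrin receptors. All 55 were found among the 27179 Entrez Gene entries of the deposited expression table, and 39 of them had a mean of at least 0.5 RPKM (mapped reads scaled to the length of the gene and the depth of the library) over the 6 libraries, which was the level required for testing. The controls carried Six2TGC, a transgene that places green fluorescent protein (GFP) and Cre recombinase under Six2 regulatory sequence, and the mutants carried Six2TGC together with miR-17~92fl/fl, a floxed copy of the miR-17~92 microRNA cluster on both chromosomes. Cre was therefore present in both groups, and the control label names no floxed allele. Strain background is not given in the labels, so the cluster's deletion and any other inherited difference between the groups cannot be told apart. Cells were sorted on GFP at E16.5, late in embryonic kidney growth. Each genotype had 3 libraries, and each library came from the pooled progenitors of 4 embryos, so the spread between libraries is a spread between pools.

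Eph receptors are receptor tyrosine kinases that bind membrane-anchored ephrins on neighbouring cells. Ephrin-A ligands are held by a lipid anchor and ephrin-B ligands span the membrane, and contact between the cells can send signals into both of them. Most class 3 semaphorins are secreted and bind a neuropilin, which relays the signal through a plexin, whereas semaphorins of classes 4 to 6 are membrane proteins that mostly bind plexins directly. Netrins are secreted laminin-related proteins received by Dcc, neogenin (Neo1) and the Unc5 receptors. These systems were first described in growing axons, and they also control cell sorting, migration and vessel growth in other organs, the developing kidney included.

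The deleted cluster on chromosome 14 gives rise to 6 mature microRNAs, shown here because the members were searched for matches to their seeds. A seed is bases 2 to 8 from the 5′ end, the part that pairs with a target, and it is in capitals below, in the RefSeq sequence of GRCm38.p6. The 6 sequences fall into 4 seed groups, with miR-17-5p and miR-20a-5p sharing one seed and miR-19a-3p and miR-19b-3p another.
miR-17-5p: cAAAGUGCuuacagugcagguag
miR-20a-5p: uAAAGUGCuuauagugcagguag
miR-18a-5p: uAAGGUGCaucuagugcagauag
miR-19a-3p: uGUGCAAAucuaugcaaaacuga
miR-19b-3p: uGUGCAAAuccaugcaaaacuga
miR-92a-3p: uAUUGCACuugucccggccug

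The libraries held 27602025 to 36134381 counted reads, a depth worked out from the steps of the RPKM values, at which 1 read in a gene of 1 kilobase is worth 0.0277 to 0.0362 RPKM. In the targeted locus, the Mir17 entry stood at 12.5, 8.57 and 6.77 RPKM in control libraries and at 0.787, 0 and 0 RPKM in the mutants, from 16 to 31 reads a control library and 0 to 2 a mutant library. The host transcript Mir17hg went the other way, at 33.6 to 52.9 RPKM in control libraries and 183.0 to 259.0 RPKM in the mutants. Six2 was present in every library, at 69.9 to 104.0 RPKM in control libraries and 57.0 to 77.0 RPKM in the mutants. Xist was at 154.0, 0.034 and 0.0278 RPKM in control libraries and 60.1, 180.0 and 122.0 RPKM in the mutants, so the pools were not matched for sex. Controls 2 and 3 were near 0, while control 1 and every mutant were not, so sex was partly aligned with genotype. The part of sex in the members' differences was not tested. The X-linked members are Efnb1, Plxna3 and Plxnb3. None of the 55 members lies on chromosome 14 (0 members), the chromosome of the cluster.

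Of the 39 tested members, Sema3c was higher in the mutants, and Sema3d and Plxna4 were lower, at an adjusted p under 0.05 in limma with Benjamini-Hochberg adjustment over all 13463 tested genes. The other 36 did not pass. Over all tested genes 422 were called, or 3.13 percent, of which 1.32 percent were higher and 1.81 percent lower, so 1 higher and 2 lower among 39 members is not a result about the list. At an unadjusted p under 0.05, 7 members were higher and 8 lower, beside 5.94 and 13.7 percent of all tested genes. Groups did not overlap for 6 members with all mutants higher and 8 with all mutants lower, beside 7.06 and 18.0 percent of all tested genes. The median log2 fold change of mutant over control on the log2(RPKM + 0.5) scale was -0.14 over the 39 members and -0.125 over all tested genes. A common shift below 0 was thus shared with the whole table. Scaling the libraries by the median of their ratios moved the median of all genes to -0.012 and the calls over all genes from 178 higher and 244 lower to 282 higher and 154 lower, or 2.1 and 1.15 percent. With that scaling the members called were 2 higher, Sema3c and Sema5a, and 1 lower, Plxna4.

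**Figure D1:**
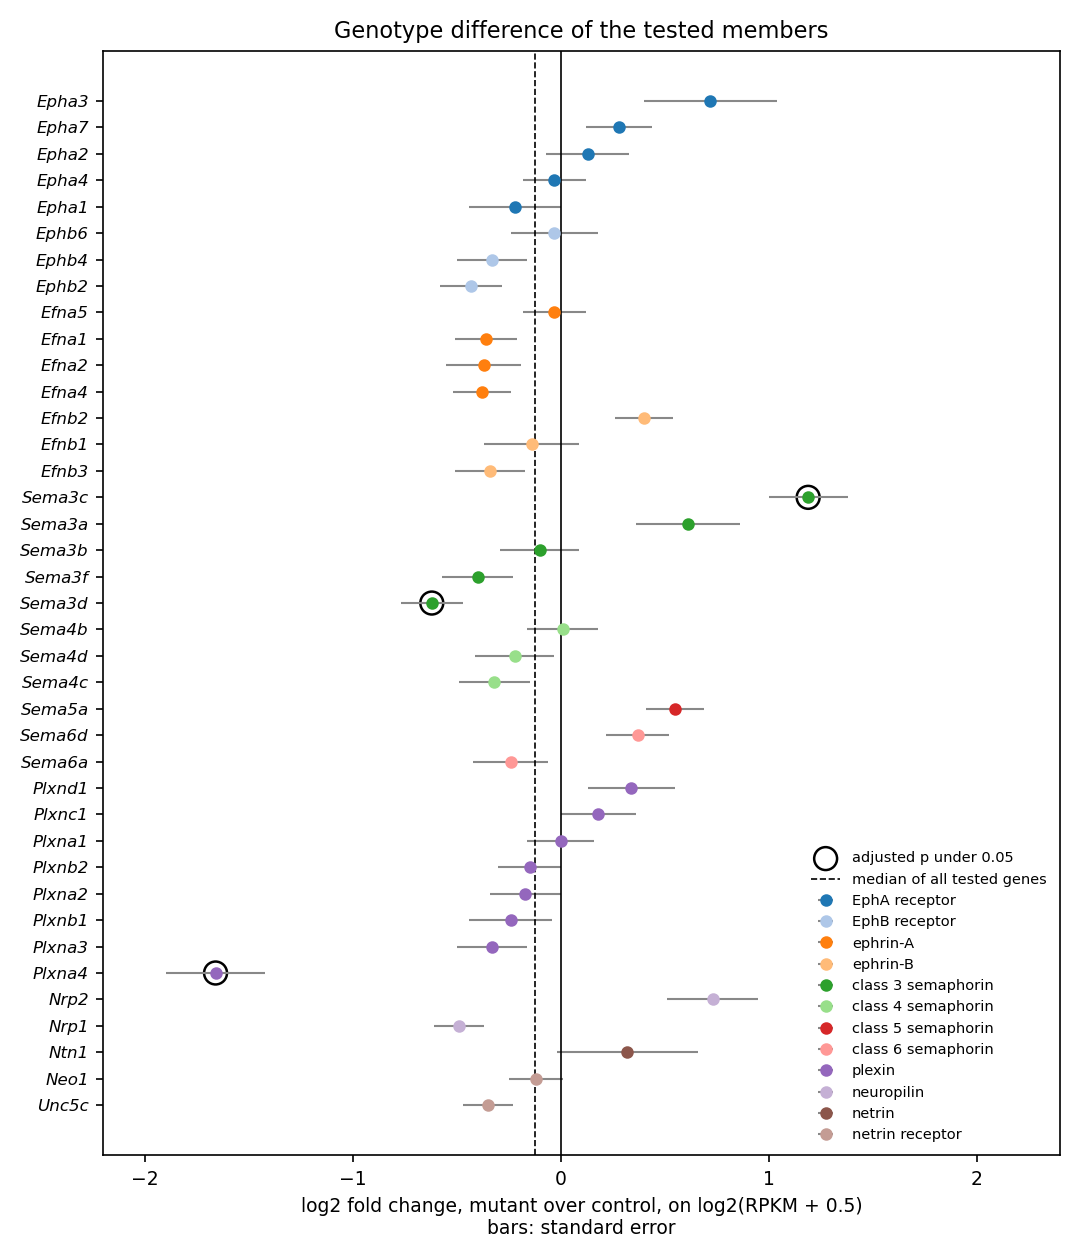
Log2 fold change of mutant over control on log2(RPKM + 0.5), x axis, for the 39 tested members, 1 row each and coloured by family; bars are standard errors, circles mark an adjusted p under 0.05 and the dashed line is the median of all tested genes at -0.125. Sema3c at 1.19, Sema3d at -0.62 and Plxna4 at -1.66 are circled, and the other 36 members are not.

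The class 3 semaphorins, the secreted ligands of the neuropilins, held both a member that rose and one that fell. Sema3c, known for its part in outflow tract and vessel development, was at 3.57, 4.84 and 2.78 RPKM in control libraries and 7.96, 8.79 and 10.2 RPKM in the mutants. All 3 mutant libraries stood above all 3 controls. Its mean rose 2.41-fold, from 3.73 ± 1.04 to 8.97 ± 1.11 RPKM (SD, n = 3 each), with a log2 fold change of 1.19 (SE 0.19, limma adjusted p = 0.00536). The gene, Entrez 20348, lies at chr5:17574816-17730268 (mm10). Its call held in 14 of 16 alternative analyses and was lost without the filter on low values (adjusted p = 0.0573) and without mutant library 2 (adjusted p = 0.0526).

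Sema3d, which signals to endothelial and neural crest cells through Nrp1, moved in the opposite direction. It was at 11.5, 9.86 and 12.0 RPKM in control libraries and 6.22, 7.14 and 7.82 RPKM in the mutants, with no overlap. The control mean of 11.1 ± 1.11 RPKM was 1.57 times the mutant mean of 7.06 ± 0.803 RPKM, and the log2 fold change was -0.62 (SE 0.15, limma adjusted p = 0.0430). This call is the least stable of the 3: it held in 7 of 16 alternatives and was lost, among others, with median-of-ratios scaling (adjusted p = 0.0965), with quantile normalization (0.0986), without the filter on low values (0.104), with no variance trend (0.0665), and without control library 1 (0.178), mutant library 1 (0.163), mutant library 2 (0.155) or mutant library 3 (0.0623). Sema3d (Entrez 108151) lies at chr5:12383161-12588953. With Sema3a and Sema3e in between, Sema3d and Sema3c mark the ends of a 5.35 Mb stretch that holds 4 class 3 genes.

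Within the class, the ranking of these 2 called ligands changed, which restates the values above and is no further test. Sema3d stood at 3.22, 2.04 and 4.31 times the RPKM of Sema3c in control libraries and at 0.781, 0.811 and 0.769 times in the mutants. As a share of the summed RPKM of the 6 class 3 genes, Sema3c took 9.8 to 15.6 percent in control libraries and 29.0 to 30.4 percent in the mutants, while Sema3d took 31.9 to 42.2 percent and then 22.3 to 23.7 percent. The sum itself did not separate the groups, at 28.3 to 30.9 RPKM in control libraries and 26.2 to 35.0 RPKM in the mutants.

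The other class 3 ligands did not pass the test. Sema3a, the classic repellent that binds Nrp1, was at 3.23, 4.4 and 1.81 RPKM in control libraries and 3.79, 5.71 and 5.15 RPKM in the mutants. The groups overlapped, because control 2 was above mutant 1, and the log2 fold change was 0.61 (SE 0.25, limma adjusted p = 0.220). Sema3a was called in 1 of 16 alternatives, without control library 2 (limma adjusted p = 0.0473). Sema3f, which prefers Nrp2, was at 10.5, 9.18 and 9.78 RPKM against 6.54, 6.29 and 9.35 RPKM, where mutant 3 lay within the controls (log2 fold change -0.40, SE 0.17, adjusted p = 0.215). Sema3b was at 1.95 to 2.41 RPKM in control libraries and 1.52 to 2.4 RPKM in the mutants. Sema3e, a direct ligand of plexin D1, averaged 0.182 RPKM and was not tested.

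Among the membrane semaphorins, Sema5a had the highest level. It was at 11.9, 12.8 and 10.2 RPKM in control libraries and 16.2, 19.6 and 16.0 RPKM in the mutants, and the groups did not overlap. The means were 11.6 ± 1.32 and 17.2 ± 2.05 RPKM (SD, n = 3 each), a ratio of 1.48, with a log2 fold change of 0.55 (SE 0.14) and a limma adjusted p of 0.0666. It passed with median-of-ratios scaling (0.0395), quantile normalization (0.0403) and voom, limma's weighted test on read counts (0.0171), and without control library 2 (0.039). In all, Sema5a was called in 5 of 16 alternatives. It did not pass, among others, without control library 1 (limma adjusted p = 0.189) or mutant library 2 (0.264). Sema6d, a ligand of plexin A1 in heart development, was at 2.43, 2.51 and 2.44 RPKM against 3.33, 3.13 and 3.53 RPKM. These groups did not overlap either, but the adjusted p was 0.224 for a log2 fold change of 0.37 (SE 0.15).

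Class 4 gave no call among its 3 tested genes. Sema4d, the ligand of plexin B1, was at 3.88, 5.60 and 3.58 RPKM in control libraries and 3.69, 3.02 and 4.16 RPKM in the mutants, with overlap (log2 fold change -0.22, SE 0.19, adjusted p = 0.519). Sema4c was at 1.61, 1.59 and 1.78 RPKM against 1.23, 1.28 and 1.17 RPKM, without overlap, at an adjusted p of 0.327. Sema6a, a ligand of plexins A2 and A4, was at 2.96, 3.16 and 3.43 RPKM against 2.05, 2.86 and 3.04 RPKM (log2 fold change -0.24, SE 0.18, adjusted p = 0.461).

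The neuropilins, the binding subunits for class 3 semaphorins, differed in opposite directions, and neither passed the test on RPKM values. Nrp1, also a coreceptor for vascular endothelial growth factor, was at 53.1, 45.3 and 49.6 RPKM in control libraries and 36.7, 32.5 and 35.5 RPKM in the mutants. No mutant reached the lowest control. The means were 49.3 ± 3.91 and 34.9 ± 2.12 RPKM, and the log2 fold change was -0.49 (SE 0.12, limma adjusted p = 0.0575). Nrp2 was at 0.514, 0.971 and 0.521 RPKM in control libraries and 1.16, 1.34 and 1.75 RPKM in the mutants, again with no overlap. Its means were 0.669 ± 0.262 and 1.42 ± 0.303 RPKM, and the log2 fold change was 0.73 (SE 0.22, adjusted p = 0.113). With voom on recovered reads both passed, Nrp1 at an adjusted p of 0.022 and Nrp2 at 0.0141, and without control library 2 both passed as well (0.0353 and 0.0461). Nrp1 also passed without control library 3 (0.0375). In all, Nrp1 was called in 4 of 16 alternatives and Nrp2 in 3. Neither passed with median-of-ratios scaling (limma adjusted p = 0.127 for Nrp1 and 0.0686 for Nrp2) or without control library 1 (0.282 and 0.331). On the RPKM scale the level of Nrp1 was 103.0, 46.6 and 95.3 times that of Nrp2 in control libraries and 31.5, 24.3 and 20.2 times in the mutants.

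Among the plexins, the signalling receptors of the semaphorins, Plxna4 fell and 7 others did not pass. Plxna4, a coreceptor of Nrp1 for Sema3a and a direct receptor of Sema6a, was at 4.13, 3.58 and 4.74 RPKM in control libraries and 0.873, 0.574 and 1.64 RPKM in the mutants. The highest mutant lay well below the lowest control. The control mean of 4.15 ± 0.581 RPKM was 4.04 times the mutant mean of 1.03 ± 0.547 RPKM (SD, n = 3 each), and the log2 fold change was -1.66 (SE 0.24, limma adjusted p = 0.00310). It rested on 4843 reads in control libraries and 1103 in the mutants, and it was called in 15 of 16 alternatives, the exception being no filter on low values (adjusted p = 0.0572). As a share of the summed plexin RPKM it went from 10 to 13.0 percent in the controls to 2.2 to 4.61 percent in the mutants. Plxna4 (Entrez 243743) lies at chr6:32144543-32588192, and 110 of its exon bases overlap the antisense gene Plxna4os3. Whether the counting used strand is not given in the sources used here. The same limit touches Unc5c, Efna4, Ephb1, Ephb4, Sema4c and Plxna1 among 14 members whose exons overlap another gene, by 118, 168, 152, 33, 334 and 970 bases on the opposite strand.

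No other tested plexin passed. Plxnb2, the plexin with the highest level, was at 13.0, 14.1 and 12.8 RPKM in control libraries and 11.3, 10.4 and 14.3 RPKM in the mutants, with overlap (log2 fold change -0.15, SE 0.15, adjusted p = 0.570). Plxna1 was at 5.87 to 7.05 RPKM against 5.58 to 7.66 RPKM, Plxna2 at 2.13 to 2.57 against 1.94 to 2.22 RPKM, and Plxna3, which is X-linked, at 3.66 to 4.81 against 2.87 to 3.71 RPKM. Plxnd1, the receptor of Sema3e and a partner for Sema3c, was at 1.18, 1.55 and 0.814 RPKM against 1.43, 1.53 and 1.85 RPKM (log2 fold change 0.34, SE 0.21, adjusted p = 0.387). Plxnb1 and Plxnc1 averaged between 1 and 3 RPKM and overlapped between the groups. Plxnb3 averaged 0.00372 RPKM and was listed at 0 in every mutant library.

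**Figure D2:**
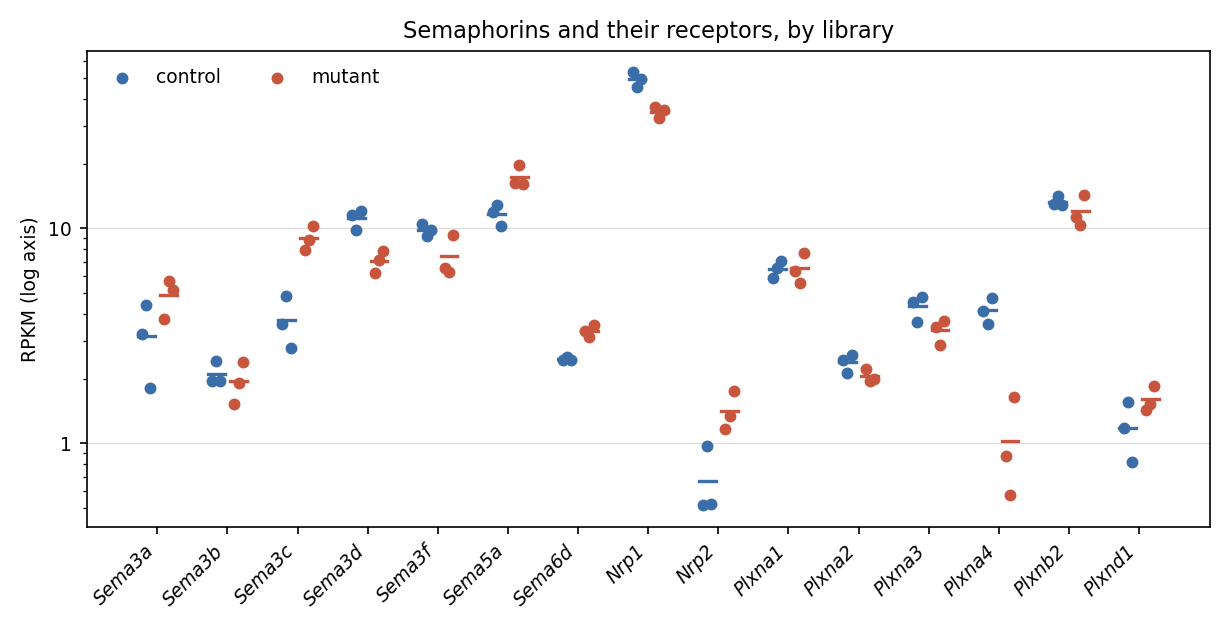
RPKM (y axis, log scale) of 15 semaphorins, neuropilins and plexins, x axis, in each of the 3 control (blue) and 3 mutant (red) libraries; short lines are group means. Sema3c, Sema5a, Sema6d and Nrp2 have all mutants above all controls. Sema3d, Nrp1 and Plxna4 have all mutants below, with Plxna4 at 0.574 to 1.64 RPKM in the mutants.

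None of the 15 tested ephrin and Eph genes passed the test. At an unadjusted p under 0.05 in limma, 2 were higher and 3 lower, beside 5.94 and 13.7 percent of all tested genes. Voom on recovered reads also called none of these 15. Efnb2, the transmembrane ligand that marks arterial endothelium and binds EphB4, was at 10.4, 12.1 and 12.7 RPKM in control libraries and 16.4, 14.2 and 15.9 RPKM in the mutants. The groups did not overlap, and the log2 fold change was 0.40 (SE 0.14, limma adjusted p = 0.151). Its receptor Ephb4 was at 7.56, 8.54 and 7.94 RPKM against 5.42, 5.63 and 8.04 RPKM, with mutant 3 inside the control range (log2 fold change -0.33, SE 0.17, adjusted p = 0.295). The ratio of Efnb2 to Ephb4 was 1.37, 1.41 and 1.6 in control libraries and 3.03, 2.53 and 1.98 in the mutants. Every mutant ratio was above every control ratio. Neither gene passed on its own, the ratio was not tested, and how often other gene pairs separate in this way was not counted.

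Of the remaining EphB receptors, Ephb2 was at 5.61, 6.77 and 5.74 RPKM in control libraries and 4.72, 3.79 and 4.58 RPKM in the mutants. The groups were separate, with a log2 fold change of -0.43 (SE 0.15, adjusted p = 0.169). Ephb6, whose kinase domain is inactive, was at 0.736 to 0.832 RPKM against 0.642 to 1.02 RPKM.

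The EphA receptor with the highest level was Epha4, which binds ephrins of both classes. It was at 12.7, 12.5 and 12.4 RPKM in control libraries and 14.4, 12.8 and 10 RPKM in the mutants, so the controls were tight and the mutants surrounded them (log2 fold change -0.03, SE 0.15, adjusted p = 0.928; 0.09 with median-of-ratios scaling). Epha7 was at 7.15, 5.61 and 7.24 RPKM against 7.91, 7.30 and 9.40 RPKM, without overlap but at an adjusted p of 0.340. Epha3 varied most within the controls, at 1.03, 1.34 and 0.232 RPKM, against 1.04, 1.94 and 1.94 RPKM in the mutants (log2 fold change 0.72, SE 0.32, adjusted p = 0.249). Epha2 and Epha1 overlapped between the groups.

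The ephrin-A ligands were mostly lower in the mutants without passing. Efna1 was at 8.31, 8.68 and 6.74 RPKM in control libraries and 6.16, 5.92 and 5.94 RPKM in the mutants (log2 fold change -0.36, SE 0.15, adjusted p = 0.208). Efna4 was at 6.91, 7.16 and 7.0 RPKM against 5.32, 4.71 and 5.90 RPKM (log2 fold change -0.38, SE 0.14, adjusted p = 0.189). For both genes the lowest control was above the highest mutant. Efna5 was at 6.37, 7.06 and 8.29 RPKM against 7.71, 6.67 and 6.85 RPKM, with a log2 fold change of -0.03 (SE 0.15, adjusted p = 0.937; 0.09 with median-of-ratios scaling). Efna2, Efnb1 and Efnb3 overlapped between the groups, with adjusted p-values of 0.275, 0.747 and 0.288.

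In the netrin system, 2 receptors were abundant, and the other 4 averaged under 0.5 RPKM. Unc5c, a receptor that mediates repulsion from netrin, was the member with the highest mean level together with Neo1. It was at 63.8, 62.1 and 67.8 RPKM in control libraries and 52.8, 50.7 and 48.4 RPKM in the mutants, with no overlap. The means were 64.6 ± 2.9 and 50.7 ± 2.21 RPKM, and the log2 fold change was -0.35 (SE 0.12, limma adjusted p = 0.150), called in none of its 16 alternatives (0 calls). Neo1, which binds netrins and repulsive guidance molecules, was at 55.4, 57.9 and 54.7 RPKM against 50.4, 46.8 and 57.3 RPKM, with overlap (log2 fold change -0.12, SE 0.13, adjusted p = 0.586). Those 2 genes gave most of the summed RPKM of the 6 netrin receptors, which was 120.0 to 123.0 RPKM in control libraries and 98.5 to 107.0 RPKM in the mutants.

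Ntn1, the secreted ligand, was at 2.25, 4.4 and 0.936 RPKM in control libraries and 2.53, 3.13 and 2.95 RPKM in the mutants. The controls spanned a 4.7-fold range that enclosed all mutants, and the log2 fold change was 0.32 (SE 0.34, adjusted p = 0.599; -0.13 without control library 3). Ntn4 averaged 0.168 RPKM and was not tested.

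**Figure D3:**
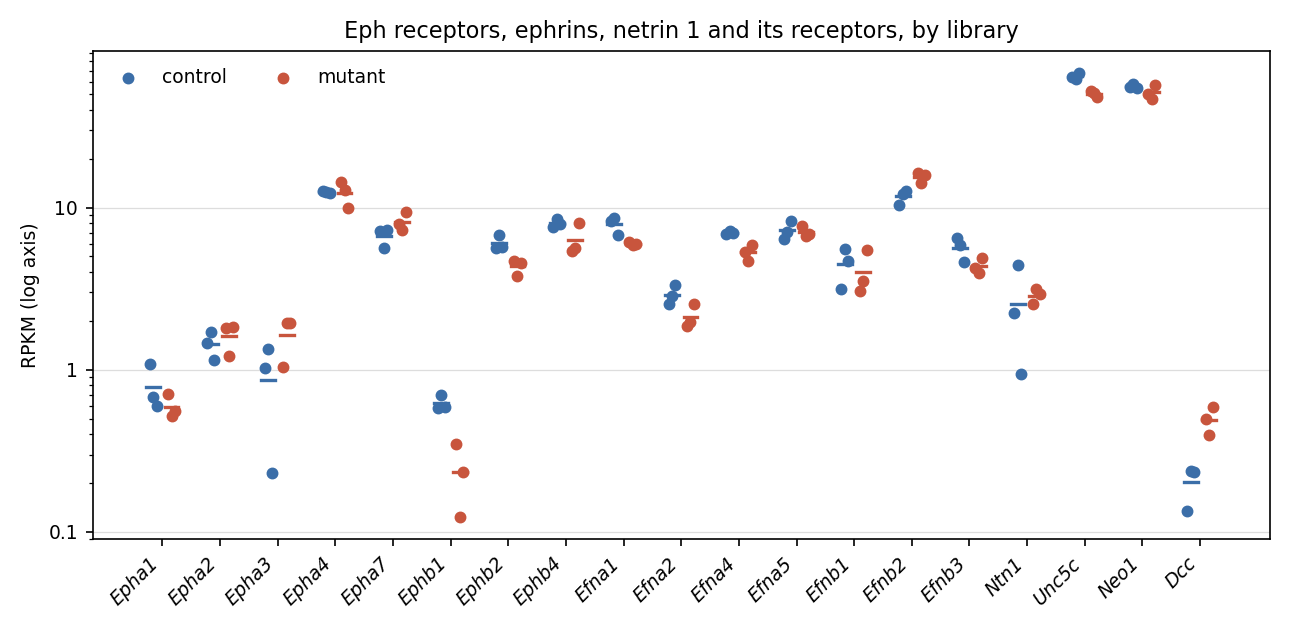
RPKM (y axis, log scale) of 19 Eph receptors, ephrins, netrin 1 and netrin receptors, x axis, in each of the 3 control (blue) and 3 mutant (red) libraries; short lines are group means. Unc5c and Neo1 are the highest, at 46.8 to 67.8 RPKM, and Epha3 and Ntn1 have 1 control library far below the others.

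Of the 16 members below the testing level, 3 had groups that did not overlap, 2 with all mutants higher and 1 with all mutants lower. Over the 9766 genes below that level with any value above 0, the shares were 7.53 and 3.13 percent. Dcc, the netrin receptor that mediates attraction, was at 0.135, 0.236 and 0.234 RPKM in control libraries and 0.496, 0.394 and 0.589 RPKM in the mutants. Summed over libraries this was 197 reads against 436, a depth-adjusted ratio of 2.42 (95 percent interval 2.04 to 2.88, exact and covering counting error only). Sema5b was at 0.127, 0.0364 and 0.156 RPKM against 0.290, 0.498 and 0.493 RPKM, from 43 reads against 165 (ratio 4.2, interval 2.99 to 6.02). Ephb1 went the other way, at 0.582, 0.700 and 0.587 RPKM against 0.347, 0.123 and 0.233 RPKM, from 275 reads against 95 (ratio 0.378, interval 0.296 to 0.479).

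These 3 genes were fitted in the analyses with a lower limit. Without a filter on RPKM, limma gave adjusted p-values of 0.162 for Dcc, 0.12 for Sema5b and 0.144 for Ephb1, and no member was called (0 calls). A voom test on recovered reads for genes with at least 10 reads, chosen after the values were seen, gave 0.0168 for Dcc (log2 fold change 1.30, SE 0.31), 0.0218 for Sema5b (2.23, SE 0.55) and 0.0322 for Ephb1 (-1.50, SE 0.39). It called 5 members higher (Sema3c, Sema5a, Sema5b, Nrp2 and Dcc) and 4 lower (Sema3d, Plxna4, Nrp1 and Ephb1), beside 2.02 and 2.11 percent of 18273 genes. Voom with the 0.5 RPKM filter called 3 members higher (Sema3c, Sema5a and Nrp2) and 3 lower (Sema3d, Plxna4 and Nrp1), beside 2.18 and 2.92 percent. The other 13 untested members, Epha5, Epha8, Ephb3, Efna3, Sema3e, Sema4a, Sema6b, Sema6c, Plxnb3, Ntn4, Unc5a, Unc5b and Unc5d, overlapped between the groups and averaged 0.00372 to 0.360 RPKM.

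Markers of other cell types were read beside these genes, because a sorted fraction can carry cells from its surroundings, and in bulk RNA fewer cells of a type and less RNA per cell cannot be told apart. Endothelial markers, of interest for Efnb2, Ephb4, Nrp1 and Sema3c, were low: their 12 genes summed to 4.12 to 7.04 RPKM in control libraries and 6.51 to 7.33 RPKM in the mutants, and 8 of the 12 averaged under 0.5 RPKM, Pecam1 and Cdh5 among them. Macrophage and leukocyte markers summed to 5.65 to 8.83 RPKM in control libraries and 14.4 to 16.0 RPKM in the mutants, with no overlap, and 7 of those 12 averaged under 0.5 RPKM. Nephron tubule markers summed to 3.85 to 4.7 RPKM against 6.87 to 19.5 RPKM. The 14 nephron progenitor markers summed to 790.0 to 858.0 RPKM in control libraries and 626.0 to 749.0 RPKM in the mutants, thus also without overlap. They are read beside the lower values of Sema3d, Plxna4, Nrp1 and Unc5c. The 55 members together summed to 349.0 to 357.0 RPKM against 302.0 to 336.0 RPKM, likewise without overlap. All mutants were lower for 18.0 percent of all tested genes. Single progenitor markers did not all fall, and the highest of them averaged 258.0 RPKM of the progenitor sum. Of 13 tested, 1 was called higher and 1 lower, beside 1.32 and 1.81 percent of all tested genes. Their fold changes lay above the median of all tested genes for 5 and below it for 8. Sums of renal vesicle, podocyte, ureteric bud, neuronal and Schwann cell, and erythroid markers overlapped between the groups. Of the 12 tested renal vesicle markers, however, 2 were called higher (Cdh6 and Emx2) and 0 lower, beside 1.32 and 1.81 percent of all tested genes. The median log2 fold change of the renal vesicle list was 0.31. Also called higher were 3 of 5 tested macrophage and leukocyte markers, 1 of 4 nephron tubule markers and 1 of 3 neuronal and Schwann cell markers. In these lists 0 were called lower, beside the same shares of all tested genes. Their median log2 fold changes were 1.23, 0.6 and 0.2 in that order. The endothelial, podocyte, ureteric bud and erythroid lists gave no call (0 calls). Control 3 had the lowest sum of the 6 libraries for endothelial (4.12 RPKM), macrophage (5.65 RPKM), renal vesicle (110.0 RPKM), podocyte (91.0 RPKM) and ureteric bud markers (1.54 RPKM). The part of these shifts in the members' differences was not tested.

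Interstitial markers varied between libraries of the same genotype, and as a list they also shifted upward in the mutants. All 12 listed genes lay above the median fold change of all tested genes, and their median log2 fold change was 0.61. None was called (0 calls). At an unadjusted p under 0.05 in limma, 4 were higher and 0 lower, beside 5.94 and 13.7 percent of all tested genes. The 12 interstitial genes, among them Foxd1, Pdgfra and the fibrillar collagen genes, summed to 153.0, 226.0 and 89.8 RPKM in control libraries and 160.0, 265.0 and 239.0 RPKM in the mutants. Control 3, with the lowest sum, was also the lowest of the 6 libraries for 9 tested members: Epha2, Epha3, Sema3a, Sema3c, Sema4b, Sema5a, Plxnc1, Plxnd1 and Ntn1. Those 9 are 23.1 percent of the tested members, and control 3 was the lowest library for 17.3 percent of all tested genes. The ratio of highest to lowest control was 5.75 for Epha3, 4.7 for Ntn1 and 2.43 for Sema3a, where the median over tested members was 1.24. For Sema3c the libraries nearest in interstitial sum, control 1 at 153.0 RPKM and mutant 1 at 160.0 RPKM, held 3.57 and 7.96 RPKM. Control 2, with more interstitial signal than mutant 1, held 4.84 RPKM of Sema3c. For Nrp2 the same 3 libraries held 0.514, 1.16 and 0.971 RPKM, and for Sema5a 11.9, 16.2 and 12.8 RPKM. For Sema3a they held 3.23, 3.79 and 4.4 RPKM and for Epha3 1.03, 1.04 and 1.34 RPKM, where control 2 was the highest of the 3. These are values of single libraries, and the part of interstitial RNA in the members' differences was not tested.

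**Figure D4:**
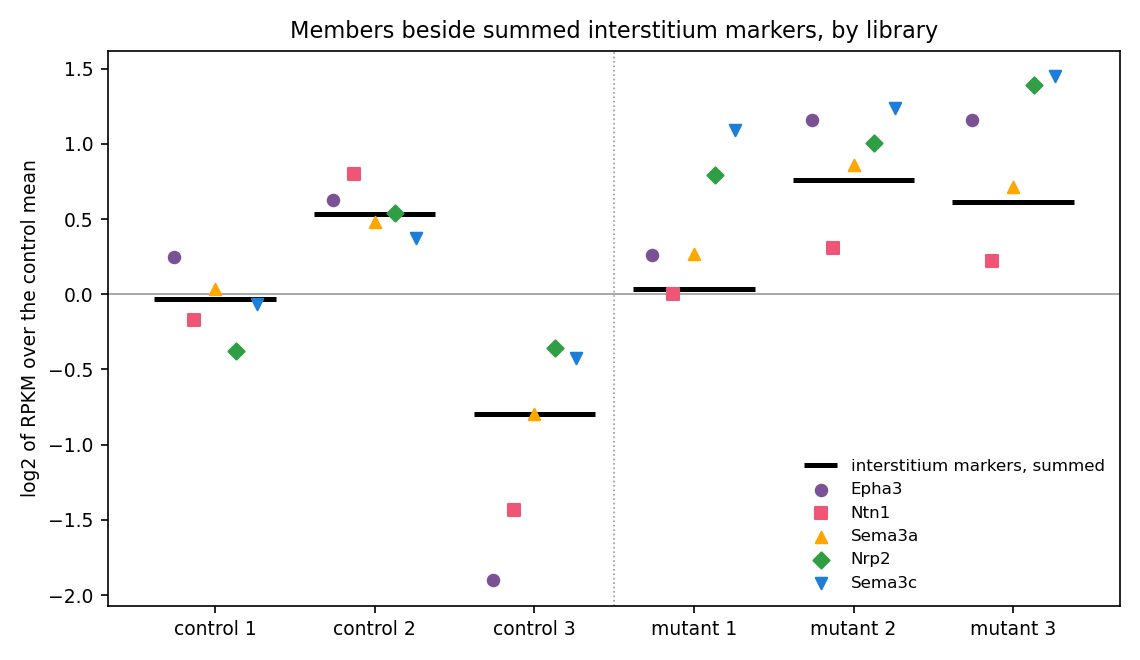
Log2 of RPKM over the mean of the 3 controls (y axis) in each library (x axis) for 5 members (coloured symbols), with the same for the summed RPKM of 12 interstitial markers (black bars). In mutant 1 the bar is near the control mean while Sema3c and Nrp2 lie above it. Epha3, Ntn1, Sema3a and Sema3c are lowest in control 3, where the bar is also lowest. Nrp2 is at 0.521 RPKM there, near its lowest value of 0.514 RPKM in control 1. Among the mutants, the bar and all 5 members are lowest in mutant 1.

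Other genes of the same systems and of their signal transduction were taken as 2 further lists. The first held 23 related ligands and receptors, such as the Slit ligands, their Robo receptors, the netrin-G genes and the Flrt proteins. None of the 15 tested was called (0 calls). At an unadjusted p under 0.05 in limma, 0 were higher and 3 lower, beside 5.94 and 13.7 percent of all tested genes. Voom on recovered reads called 1. That gene was Robo2, the Slit receptor that limits ureteric budding, at 88.6, 65.4 and 104.0 RPKM in control libraries and 55.8, 52.1 and 60.8 RPKM in the mutants. Its groups did not overlap, and the log2 fold change was -0.59 (SE 0.17, limma adjusted p = 0.0912; 0.0229 with voom and 0.00488 without control library 2). Robo2 was called in 3 of 16 alternatives, and not, among others, with median-of-ratios scaling (limma adjusted p = 0.206) or without mutant library 2 (0.332). Flrt1 (log2 fold change -0.52, adjusted p = 0.187), Ntn3 (-0.56, 0.201) and Flrt2 (0.33, 0.316) came next by p. The list's median log2 fold change was -0.07.

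The second list held 59 transducers that act downstream of these receptors, such as kinases, adaptors and actin-binding proteins. Of 55 tested, 0 were called higher and 3 lower, Mical2, Pak4 and Met, beside 1.32 and 1.81 percent of all tested genes, and the list's median log2 fold change was -0.16. Mical2, of the family of actin-oxidizing enzymes first found as plexin partners, was at 5.37, 5.19 and 6.82 RPKM in control libraries and 2.5, 3.12 and 3.32 RPKM in the mutants (log2 fold change -0.85, SE 0.17, limma adjusted p = 0.0196). Pak4, a kinase downstream of Cdc42, was at 20.5, 26.2 and 17.5 RPKM against 12.5, 11.7 and 14 RPKM (-0.71, SE 0.16, adjusted p = 0.0342). Met, the hepatocyte growth factor receptor, which can associate with B plexins, was at 22.8, 19.9 and 18.9 RPKM against 14.3, 11.5 and 14.4 RPKM (-0.60, SE 0.14, adjusted p = 0.0441). For these 3 genes every mutant lay below every control. Mical2 was called in 12 of 16 alternatives, Pak4 in 8 and Met in 7, and each lost its call without control library 1, mutant library 1 or mutant library 2. Pak4 also lost it without control library 2 (adjusted p = 0.0571) or mutant library 3 (0.0715), and Met without mutant library 3 (0.0826) or with median-of-ratios scaling (0.0539).

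The longest annotated 3′ untranslated region of each tested gene (GENCODE vM21) was searched on its sense strand for the 7 bases complementary to each seed: GCACTTT for miR-17-5p and miR-20a-5p, GCACCTT for miR-18a-5p, TTTGCAC for miR-19a-3p and miR-19b-3p, and GTGCAAT for miR-92a-3p. Among 11714 tested genes with such a region, 34.6 percent held at least 1 match, at 0.309 matches per kilobase and a median length of 1232 bases. Single motifs were held by 15, 9.41, 13.9 and 7.88 percent in the same order. Among the 39 tested members, 19 (48.7 percent) held a match, at 0.364 per kilobase and a median length of 2320 bases. Longer regions hold more matches by length alone, and the members' regions were longer.

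Matches were present on both sides of the genotype difference. Of the 7 members higher at an unadjusted p under 0.05, 5 held a match (Sema3a, Sema3c, Sema5a, Nrp2 and Efnb2), as did 2 of the 8 lower ones (Plxna4 and Ephb2) and 12 of the other 24. In the same order, the matches per kilobase were 0.501, 0.184 and 0.4, at median lengths of 2962, 2287 and 1413 bases. The difference between these rates was not tested. Sema3c held 1 match in 2512 bases, and Sema5a held 5 in 6926 bases. Plxna4, the member that fell most, held 2 in 6221 bases. Sema3d held none in 3646 bases (0 matches), and Nrp1 none in 549 bases. A match is a run of letters and not a measured site.

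The windows of 28 bases ending in these matches are printed 5′ to 3′ for the 2 called members that hold any. Those of Sema5a and Nrp2, which were not called and whose groups did not overlap, are printed as well. Other tested members without overlap hold matches that are not printed. These are Efnb2 (2 matches) and Epha7 (3), higher in the mutants, and Ephb2 (3) and Sema4c (2), lower in the mutants. Capitals mark the match, with the final A of an 8-base match where there is one. They come from GENCODE vM21 transcripts of GRCm38, in which Plxna4 runs past the gene end given above.
Sema3c, miR-17-5p and miR-20a-5p, chr5:17730070-17730097 (+): tacataaaattacctagaaatGCACTTT
Sema5a, miR-17-5p and miR-20a-5p, chr15:32689804-32689831 (+): acaaacaaacaaataaccagGCACTTTA
Sema5a, miR-19a-3p and miR-19b-3p, chr15:32689940-32689967 (+): taggttcttagaaacagcttgTTTGCAC
Sema5a, miR-18a-5p, chr15:32692373-32692400 (+): aaaccatccagtgcaagctagGCACCTT
Sema5a, miR-18a-5p, chr15:32692411-32692438 (+): ccccttaagacttactcataGCACCTTA
Sema5a, miR-19a-3p and miR-19b-3p, chr15:32692177-32692204 (+): aaaaaaaaaagaagagaattTTTGCACA
Nrp2, miR-17-5p and miR-20a-5p, chr1:62796039-62796066 (+): caaacacgttgcctcgattttGCACTTT
Nrp2, miR-17-5p and miR-20a-5p, chr1:62798124-62798151 (+): agagaaccatggcgtcacggaGCACTTT
Nrp2, miR-19a-3p and miR-19b-3p, chr1:62796036-62796063 (+): ctgcaaacacgttgcctcgatTTTGCAC
Plxna4, miR-19a-3p and miR-19b-3p, chr6:32148084-32148111 (-): gagagagatttgatttaagtTTTGCACA
Plxna4, miR-18a-5p, chr6:32144397-32144424 (-): aacttggtaaaggcagcttctGCACCTT
Of the Nrp2 matches, those at chr1:62796036-62796063 and chr1:62796039-62796066 share the letters GCAC.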

How the data were processed

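For the 6 libraries of sorted-cell RNA, the authors deposited RPKM values in a single table. The submitters' processing notes name the build mm10 and, without a role, FastQC and limma; subread appears in column names, per the file headers. No aligner or strand setting was found in the labels or headers. Of 27179 entries, 25293 were matched to symbols. The test was limma (version 3.58.1, R 4.3.3), two-sided, on log2 of RPKM plus a pseudocount of 0.5, with genotype as the only term, limma's mean-variance trend, and p-values adjusted by Benjamini and Hochberg's method at 0.05; an entry entered it when its 6 libraries averaged 0.5 RPKM or more. A fold change on this scale understates the change of low genes. Whole reads were recovered within 0.01 of a read for 13462 of 13463 tested genes (not Mir27a) and summed to 99.71 to 99.75 percent of the depth; the tolerance was tightened after a looser one gave lower sums. A counted read here may stand for a pair of mates, which the sources do not state.

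The members and lists were chosen with earlier results of these data known. Values in every library are given for members that were called, that had an unadjusted p under 0.05, or that were highest in their family, and other members named were chosen after their values were seen; of the 2 further lists, for called genes or up to 4 of lowest p. Simulated data with variances drawn from limma's prior (13367 genes, 200 changed) gave recovery of 12.3 percent at 1.5-fold, 65.2 percent at 2-fold and 98.5 percent at 4-fold, with 8.73 percent of calls false. Alternatives were other pseudocounts, filters, scalings and variance models, a replicate block, voom and leaving out each library. The median-of-ratios factors were taken from tested genes above 0 in every library, a gene set chosen after a first version over all genes had been run. Members shared at most 5.24 percent of their 31-base words with other genes (Epha1). P-values set the genotype difference against the spread between pools.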

Additional observations from a re-analysis of the deposited data

How the results depend on the processing

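Calls over all tested genes went from 422 to 143 without a filter on low values, 686 with voom and 754 with voom at a minimum of 10 reads (the last chosen after seeing the data), and ranged from 148 to 1083 with 1 library left out, the extremes being without mutant library 2 and without control library 3. Members called higher went from 1 to 0 without the filter, 2 with median-of-ratios scaling, 2 with quantile normalization, 3 with voom and 5 with voom at 10 reads, and ranged from 0 to 4 with 1 library left out (0 without mutant library 2, 4 without control library 2). Members called lower went from 2 to 0 without the filter, 1 with either scaling, 1 with no trend, 3 with voom and 4 with voom at 10 reads, and ranged from 1 to 3 (3 without control library 2 or 3). Other guidance genes went from 0 to 1 with each voom fit and from 0 to 1 with a library left out. Transducers went from 3 to 0 without the filter and 5 with each voom fit, and from 0 to 5 with a library left out. The cause of these shifts was not tested. Directions reversed for Epha4 (0.09 with median-of-ratios scaling, 0.08 with quantile normalization, and -0.14 to 0.11 with 1 library left out, above 0 without mutant library 3), Efna5 (0.09 with each scaling, and -0.11 to 0.07 with 1 library left out, above 0 without control library 3 or mutant library 2, at 0.01) and Ntn1 (-0.13 without control library 3, up to 0.76 without control library 2). Of the other single-gene values, 406 kept direction and side of the threshold, 33 lost their call and 16 gained one. These reversals and counts cover members at an unadjusted p under 0.05 or highest in their family, and named genes of the 2 further lists. Outside them, log2 fold changes took both signs over the alternatives for Neo1 (-0.2 to 0.05), Efnb1 (-0.36 to 0.02) and Sema3b (-0.24 to 0.02). The same held for Ephb6 (-0.16 to 0.04), Sema4b (-0.11 to 0.12) and Plxna1 (-0.12 to 0.11). A 1.5-fold change was rarely recovered in simulated data, so a member that did not pass is not shown to be unchanged.

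The labels number the libraries 1 to 3 in both genotypes. Same-numbered libraries deviated together with correlations of 0.0526, 0.157 and 0.153, and other pairings with -0.146 to -0.00627; each library was closest to its own number, a hint from the data and not from the design. With the number as a replicate block, all calls went from 422 to 393, members called lower from 2 to 1 (Sema3d at an adjusted p of 0.0565) and transducers from 3 to 1 (Pak4 at 0.051 and Met at 0.0528).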
